A study of Mus musculus with 16 samples.

Results

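The genes that carry out antigen presentation by class I molecules of the major histocompatibility complex (MHC) were followed across 16 RNA-seq libraries of mouse retina. They comprise 10 genes: the light chain gene B2m, the heavy chain genes H2-K1, H2-D1, H2-T23, H2-Q4 and H2-Q7, the peptide transport and loading genes Tap1, Tap2 and Tapbp, and the immunoproteasome gene Psmb8. All 10 were found by gene symbol among the 54532 genes of the uninjected table, and by the same gene identifier among the 48440 genes of the injected table. The list was drawn up with the results of the fatty acid injection in view. Its values in that comparison are therefore given as a description, with no p-value, and counts of members called there support nothing, while age and genotype were tested.

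The retinas fell into 5 groups, all of C57BL6/J background as far as the labels state it. Injected retinas came from 18-month-old mice and were collected 5 days after an intravitreal injection, which was 0.36 nmol of the polyunsaturated fatty acid written 24:5 in one eye (n = 3) and vehicle in the fellow eye (n = 3). Uninjected retinas came from wildtype mice aged 18 months (n = 4), from mice aged 12 months that carry a substitution in Elovl2, which lengthens polyunsaturated fatty acids (n = 3), and from wildtype mice aged 12 months (n = 3). The mutation is written Elovl2C34W in the genotype labels and C234W in the series design. Both injected groups had been through the injection, and no untreated retina was counted in their table. The labels do not say which libraries share an animal, nor whether every library has its own animal. The p-values below therefore reflect variation among these libraries, part of which may be technical.

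In mice, class I molecules are built from a heavy chain and the shared light chain beta-2 microglobulin, and they carry a short peptide to the cell surface for inspection by CD8+ T cells and natural killer cells. The peptides are cut in the cytosol by the proteasome, which takes up alternative catalytic subunits in cells exposed to interferon, and are pumped into the endoplasmic reticulum by the Tap1 and Tap2 transporter. Tapasin, the product of Tapbp, holds the empty molecule at that transporter until a peptide is bound. Interferon gamma and the transactivator Nlrc5 raise transcription of this set of genes together, and in nervous tissue microglia and vessel cells carry more class I than neurons do.

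Of the members, B2m (ENSMUSG00000060802) lies alone on chromosome 2 from 122147686 to 122153083 on the plus strand of mm10. The other 9 lie within the MHC of chromosome 17. Tapbp (ENSMUSG00000024308) spans 33915899 to 33929288 on the plus strand and H2-K1 (ENSMUSG00000061232) spans 33996017 to 34000333 on the minus strand. Tap1 (ENSMUSG00000037321, 34187553 to 34197225), Psmb8 (ENSMUSG00000024338, 34197721 to 34201454) and Tap2 (ENSMUSG00000024339, 34203527 to 34216321) lie side by side on the plus strand. The start of Tap1 overlaps the start of Psmb9, which runs the opposite way, by 212 bases. H2-D1 (ENSMUSG00000073411, 35262730 to 35267499), H2-Q4 (ENSMUSG00000035929, 35379617 to 35385290) and H2-Q7 (ENSMUSG00000060550, 35439155 to 35443773) lie on the plus strand, and H2-T23 (ENSMUSG00000067212, 36029773 to 36032855) on the minus strand. Because 7 of the 10 members overlap another annotated gene and the strand setting of the counting is not given in the sources used here, reads from such partners could not be told apart.

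For several of the members, the 250 bases before the transcription start are shown, from RefSeq (build GRCm38.p6) on the strand of the gene. Capitals mark matches, on either strand, to the NF-kappaB motif, to the interferon-stimulated response element GAAANNGAAA, to the interferon regulatory factor core AANNGAAA, which lies inside the preceding motif, to the cyclic AMP response core TGACG, and to CCAAT. The windows were chr2:122147437-122147686 for B2m, chr17:34000348-34000597 for H2-K1 on the minus strand, chr17:35262844-35263093 for H2-D1, chr17:35379367-35379616 for H2-Q4, chr17:36032702-36032951 for H2-T23 on the minus strand, and chr17:34187306-34187555 for Tap1.
B2m: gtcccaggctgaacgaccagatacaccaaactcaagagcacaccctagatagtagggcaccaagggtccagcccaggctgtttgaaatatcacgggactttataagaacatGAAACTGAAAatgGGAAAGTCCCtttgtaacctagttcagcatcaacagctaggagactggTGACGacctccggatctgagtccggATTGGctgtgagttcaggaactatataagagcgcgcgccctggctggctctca
H2-K1: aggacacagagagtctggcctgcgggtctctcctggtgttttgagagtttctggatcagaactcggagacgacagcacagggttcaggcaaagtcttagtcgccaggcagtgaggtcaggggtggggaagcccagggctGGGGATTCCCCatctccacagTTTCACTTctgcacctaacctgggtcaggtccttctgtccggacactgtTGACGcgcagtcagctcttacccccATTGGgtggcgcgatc
H2-D1: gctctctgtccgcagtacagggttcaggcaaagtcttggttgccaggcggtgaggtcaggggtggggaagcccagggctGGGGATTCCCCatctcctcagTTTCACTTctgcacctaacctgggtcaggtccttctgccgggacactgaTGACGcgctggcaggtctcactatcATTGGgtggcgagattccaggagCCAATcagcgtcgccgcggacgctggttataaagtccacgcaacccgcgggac
H2-Q4: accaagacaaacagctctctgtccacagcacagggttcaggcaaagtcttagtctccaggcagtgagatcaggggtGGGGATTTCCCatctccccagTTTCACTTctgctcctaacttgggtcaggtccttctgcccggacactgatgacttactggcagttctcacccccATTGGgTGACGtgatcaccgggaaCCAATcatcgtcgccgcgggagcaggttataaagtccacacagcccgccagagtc
H2-T23: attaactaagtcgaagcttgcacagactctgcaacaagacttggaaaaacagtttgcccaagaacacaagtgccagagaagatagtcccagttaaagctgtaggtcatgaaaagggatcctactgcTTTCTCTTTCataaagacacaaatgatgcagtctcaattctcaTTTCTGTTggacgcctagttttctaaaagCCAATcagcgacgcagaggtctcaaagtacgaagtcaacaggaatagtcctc
Tap1: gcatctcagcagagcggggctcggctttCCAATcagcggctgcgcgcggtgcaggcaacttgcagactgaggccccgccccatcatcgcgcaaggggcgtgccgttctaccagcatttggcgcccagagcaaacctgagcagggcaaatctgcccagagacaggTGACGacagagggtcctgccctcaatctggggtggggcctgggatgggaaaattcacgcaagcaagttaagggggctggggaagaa

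A RefSeq window was listed for 9 of the 10 members, all except Tap2. The NF-kappaB motif was found in 5 of these 9, namely B2m, H2-K1, H2-D1, H2-Q4 and H2-Q7, and in 3.90% of 32851 promoters of the same length. The full response element was found in B2m and H2-T23 and in 2.98% of promoters. The interferon regulatory factor core was found in 6 members against 21.3% of promoters, the core TGACG in 6 against 17.8%, and CCAAT in 8 against 33.8%. In B2m the response element lay 139 to 130 bases before the start and the NF-kappaB match 126 to 117 bases before it. The window of H2-Q4 matched that of H2-Q7 at 89.5% of 210 aligned bases, and H2-K1 matched H2-D1 at 87.4% of 190 aligned bases, so their matches are not independent. Tap1 held TGACG and CCAAT only, and Psmb8 held none of these letters in its window, chr17:34197945-34198194. The windows follow RefSeq starts. Those of Psmb8, Tapbp and H2-D1 lie inside the gene spans given above, and that of H2-T23 does in part. Matches and their absence therefore depend on the start used. The part of these motifs in the levels of the members was not tested.

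The uninjected libraries held 12810558 to 30519417 reads, recovered from values scaled to gene length and library size (FPKM), and the injected libraries held 22066668 to 25609242 counts, given here scaled to library size by TMM (CPM). The 2 tables were normalised separately, so levels are compared only within a table. Rod markers were abundant in every library, as the retinal label requires, with sums of 39799 to 43730 CPM after 24:5 and 34061 to 40281 CPM after vehicle. Lens transcripts set injected libraries apart: the summed level of 8 lens markers was 650 CPM in replicate 1 of 24:5 and 54.5 to 124 CPM in the other two, and was 1639 and 1779 CPM in replicates 1 and 2 of vehicle and 124 CPM in replicate 3. In whole retina, fewer cells of a type and less RNA per cell cannot be told apart.

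After 24:5, the light chain gene and all 5 heavy chain genes averaged lower than after vehicle. B2m was at 86.5, 82.6 and 80.1 CPM in the 24:5 retinas, against 145, 153 and 121 CPM in the vehicle retinas. The 24:5 libraries lay close together and under the lowest vehicle library. The log2 fold change was -0.75 with a standard error (SE) of 0.10, which puts B2m at 59.5% of its vehicle level.

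H2-K1, one of the classical heavy chains that present peptide to CD8+ T cells, was at 75.0, 90.8 and 63.4 CPM after 24:5, against 142, 132 and 127 CPM after vehicle. The groups did not overlap, and the log2 fold change was -0.81 (SE 0.13). H2-D1, the other classical heavy chain, was at 104, 195 and 125 CPM after 24:5, against 240, 174 and 259.5 CPM after vehicle. Here the groups overlapped, since replicate 2 of 24:5 exceeded replicate 2 of vehicle, and the log2 fold change was -0.67 (SE 0.27).

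Among the 3 non-classical heavy chains of the list, H2-T23 had the lowest level after 24:5 relative to vehicle. H2-T23 encodes Qa-1, which shows leader peptides of other class I chains to natural killer cell receptors. It was at 12.5, 9.69 and 9.58 CPM in 24:5 retinas, against 25.9, 24.6 and 19.7 CPM in vehicle retinas. That is a log2 fold change of -1.14 (SE 0.15) with no overlap, and 45.3% of the vehicle level. H2-Q4, a chain of the Q region of the MHC, was at 10.4, 14.9 and 14.4 CPM after 24:5, against 20.9, 20.8 and 22.1 CPM after vehicle, with a log2 fold change of -0.68 (SE 0.14). The vehicle libraries of H2-Q4 lay close together and above every 24:5 library. H2-Q7, which encodes a Qa-2 chain anchored by lipid, was the least abundant member at 1.63, 2.79 and 1.80 CPM after 24:5, against 4.23, 3.93 and 4.57 CPM after vehicle. Its log2 fold change of -1.03 (SE 0.25), again without overlap, rests on 41 to 66 counts per 24:5 library and 94 to 103 per vehicle library. The H2-Q7 value is also the least certain in its origin, since 12.0% of the 100-base windows of its annotated transcripts occur in transcripts of other genes, with H2-Q10 the most frequent partner (5.56%). That share was 3.59% for H2-D1, 3.15% for H2-T23, 2.16% for H2-Q4 and 0.957% for H2-K1, and 0 for B2m, Tap1, Tap2 and Psmb8.

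The transport and loading genes were more scattered. Tap1, a subunit of the peptide transporter, was at 5.29, 25.0 and 16.2 CPM after 24:5, against 23.6, 17.3 and 62.5 CPM after vehicle. Its groups overlapped, replicate 1 of 24:5 was the lowest library and replicate 3 of vehicle by far the highest. The log2 fold change of -1.15 had an SE of 0.75, and it was -0.40 without vehicle replicate 3, -0.75 without 24:5 replicate 1 and -2.02 with lens marker level as a covariate. Tap2, the partner subunit, was at 12.1, 15.4 and 12.4 CPM after 24:5, against 16.7, 14.8 and 22.2 CPM after vehicle. The 2 groups of Tap2 overlapped and its log2 fold change of -0.43 (SE 0.17) was the smallest of the set; it was -0.24 without vehicle replicate 3. Tapbp was at 62.4, 76.8 and 67.5 CPM after 24:5, against 104, 85.1 and 135 CPM after vehicle. Every 24:5 library of Tapbp lay below every vehicle library, with a log2 fold change of -0.65 (SE 0.17).

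Psmb8, the immunoproteasome subunit that takes the place of the constitutive subunit Psmb5, was at 7.32, 6.56 and 5.20 CPM after 24:5, against 14.1, 9.75 and 10.7 CPM after vehicle. The groups did not overlap, and the log2 fold change was -0.86 (SE 0.19), or 55.2% of the vehicle level.

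**Figure D1:**
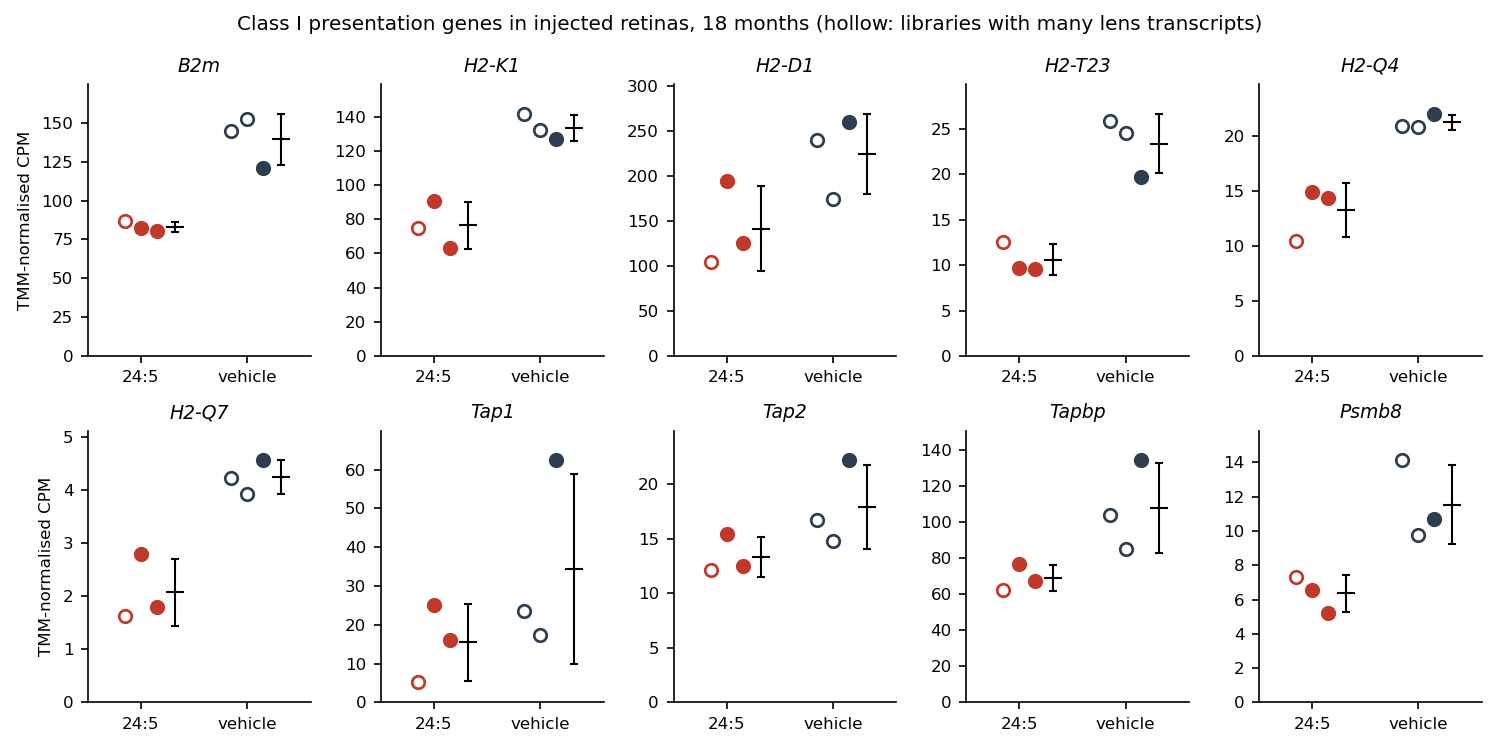
TMM-normalised CPM of each member in the 6 injected retinas, 24:5 (left) and vehicle (right), with one point per library and the mean and SD of each group beside them. Hollow points are the libraries with a summed lens marker level of at least 300 CPM. The 24:5 points lie below all vehicle points for 7 members and overlap them for H2-D1, Tap1 and Tap2.

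Of the members, 10 of 10 were lower after 24:5, with a median log2 fold change of -0.78, while the median of all 17466 genes tested was 0.00 and 49.2% of them lay below 0. For 7 of the 10, every 24:5 library lay below every vehicle library, a separation that 6.77% of all genes tested showed in the same direction. None of the members was among the 2 genes, 0.0115% of those tested, that edgeR's quasi-likelihood test called lower. Since the list was chosen on this comparison, nothing is read from these shares.

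Summed lens marker level averaged 276 CPM after 24:5 and 1180 CPM after vehicle, with overlap between the groups. The values were therefore also taken within the libraries of high and of low lens level, a split added after the data had been seen. In the high set, with 1 library of 24:5 and 2 of vehicle, B2m was at 86.5 CPM after 24:5 and averaged 149 CPM after vehicle. In the low set, with 2 libraries of 24:5 and 1 of vehicle, B2m averaged 81.4 CPM after 24:5 and was at 121 CPM after vehicle. H2-D1, whose groups overlapped when pooled, was at 104 CPM after 24:5 and 207 CPM after vehicle in the high set, and at 160.0 CPM after 24:5 and 259.5 CPM after vehicle in the low set. Tap1 likewise separated, at 5.29 CPM after 24:5 and 20.5 CPM after vehicle in the high set and at 20.6 CPM after 24:5 and 62.5 CPM after vehicle in the low set. All 10 members were lower in every 24:5 library within both sets, a pattern shown by 17.4% of all genes tested, from which again nothing is read. With these 3 libraries to a set the differences have no test.

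**Figure D2:**
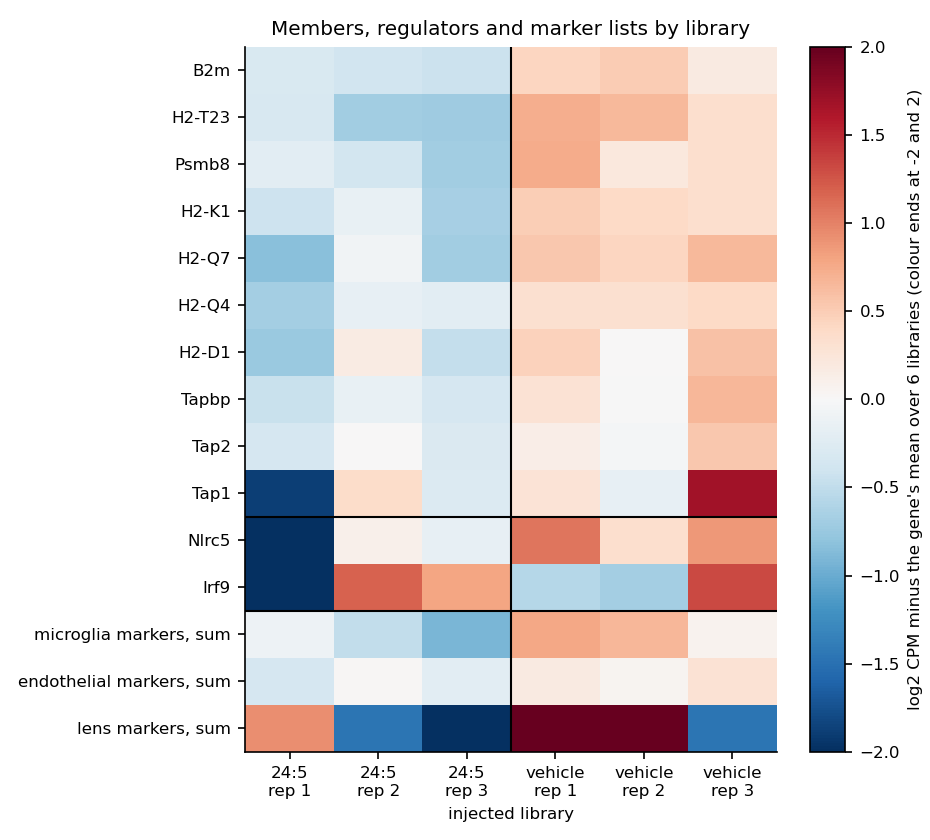
Level of the members, of the regulators Nlrc5 and Irf9 and of summed marker lists in each injected library, as log2 CPM minus its mean over the 6 libraries, with 24:5 libraries left of vehicle libraries. Colour runs from lower (blue) to higher (red) and ends at -2 and 2. B2m, H2-T23 and Psmb8 split cleanly by group, while Tap1 tracks single libraries, from 5.29 CPM in 24:5 replicate 1 to 62.5 CPM in vehicle replicate 3.

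The members varied together from library to library. Across the 6 injected libraries, which include the group difference that chose the list, all 45 pairs of members had a positive Pearson correlation of log2 levels, with a median of 0.82. The most alike were B2m and H2-T23 at 0.98, and the least alike were H2-T23 and Tap1 at 0.31. Across the 10 uninjected libraries, which the choice did not use, 44 of 45 pairs were positive with a median of 0.57, between -0.09 and 0.91. These are descriptions, since the 10 genes share the depth and composition of each library.

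Tap1 stood apart in its range. Its highest injected library was 11.8 times its lowest, while the other members spanned between 1.84 times for Tap2 and 2.80 times for H2-Q7. In uninjected retinas Tap1 spanned 2.25 times and Tapbp only 1.27 times.

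The rest of the pathway was followed with 55 further genes, listed with earlier results of these data known, of which 44 were tested after injection. None passed edgeR's quasi-likelihood test at an adjusted p of 0.05. At an unadjusted p of 0.05, 12 of the 44 passed, as did 6.61% of all genes tested. DESeq2 called 2 of them, H2-Q6 and the inhibitory receptor gene Pirb, among 245 genes in all. With lens marker level as a covariate edgeR called H2-Q6 (adjusted p of 0.0348), Irf1 (0.0193, log2 fold change of -0.86) and Psmb9 (0.0215, log2 fold change of -1.47), among 183 genes. Without an expression filter it called H2-Q6 (adjusted p of 0.0149), among 85 genes. Of the 44, 39 were lower and 5 higher after 24:5, with a median log2 fold change of -0.22. By role, the other class I and class I-like heavy chains were lower in 11 of 11 tested, of 18 listed, with a median of -0.65. Among those too low to be tested, H2-Bl averaged 0.259 CPM after 24:5 and 0.0729 CPM after vehicle. H2-M5 averaged 0.206 and 0.0865 CPM, and both were higher after 24:5 without overlap. H2-Q10 averaged 0.326 and 0.144 CPM and H2-M2 0.0406 and 0.0721 CPM, with overlap. The immunoproteasome and proteasome activator genes were lower in 4 of 4 with a median of -0.45. The loading and trimming genes had a median of -0.08, the interferon receptors and kinases of -0.10, the regulators of class I transcription of -0.05, and the constitutive proteasome subunits of -0.04. Of the receptors that bind class I, 2 were tested and both were lower, Pirb at a log2 fold change of -2.14 (SE 0.73) and Cd8a at -0.62 (SE 0.40).

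H2-Q6, a Qa-2 heavy chain beside H2-Q7, had the smallest p of these. Like H2-Q7 it has near copies in the Q region, so the split of its reads is uncertain. It was at 4.18, 4.27 and 3.97 CPM in 24:5 retinas, against 8.64, 10.3 and 7.54 CPM in vehicle retinas. The groups stood well apart, with a log2 fold change of -1.09 (SE 0.17) and an edgeR adjusted p of 0.171. Its adjusted p was 8.84e-05 with DESeq2 and between 0.0390 and 0.752 when single libraries were left out. Psmb10, an immunoproteasome subunit like Psmb8, averaged 9.79 ± 1.06 CPM after 24:5 and 14.6 ± 1.82 CPM after vehicle (SD, n = 3 each), with an edgeR adjusted p of 0.309. H2-T22, a non-classical chain known as a ligand of gamma-delta T cells, averaged 11.2 ± 1.54 CPM after 24:5 and 15.9 ± 2.57 CPM after vehicle (SD, n = 3 each), with an edgeR adjusted p of 0.494. H2-M3, which presents formylated peptides, averaged 1.95 ± 0.664 CPM after 24:5 and 4.83 ± 2.09 CPM after vehicle (SD, n = 3 each), with an edgeR adjusted p of 0.496.

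The constitutive proteasome genes had log2 fold changes near 0. Psmb5, the subunit that Psmb8 replaces, had a log2 fold change of -0.04 (SE 0.11), Psmb6 of 0.02 (SE 0.09) and Psmb7 of -0.06 (SE 0.07). Among the chaperones that fold the heavy chain, Calr was at -0.07 (SE 0.11), Canx at -0.08 (SE 0.06) and Pdia3 at -0.18 (SE 0.07). Nlrc5, the transactivator of class I genes, was singled out after its values were seen: it was at 1.55, 7.57 and 6.30 CPM after 24:5, against 14.9, 8.95 and 12.9 CPM after vehicle. The groups of Nlrc5 did not overlap, but the spread within each was large, and its log2 fold change of -1.25 (SE 0.55) had an edgeR adjusted p of 0.808. The log2 fold change was -0.82 without 24:5 replicate 1 and -1.73 with the lens covariate, where the adjusted p was 0.439.

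**Figure D3:**
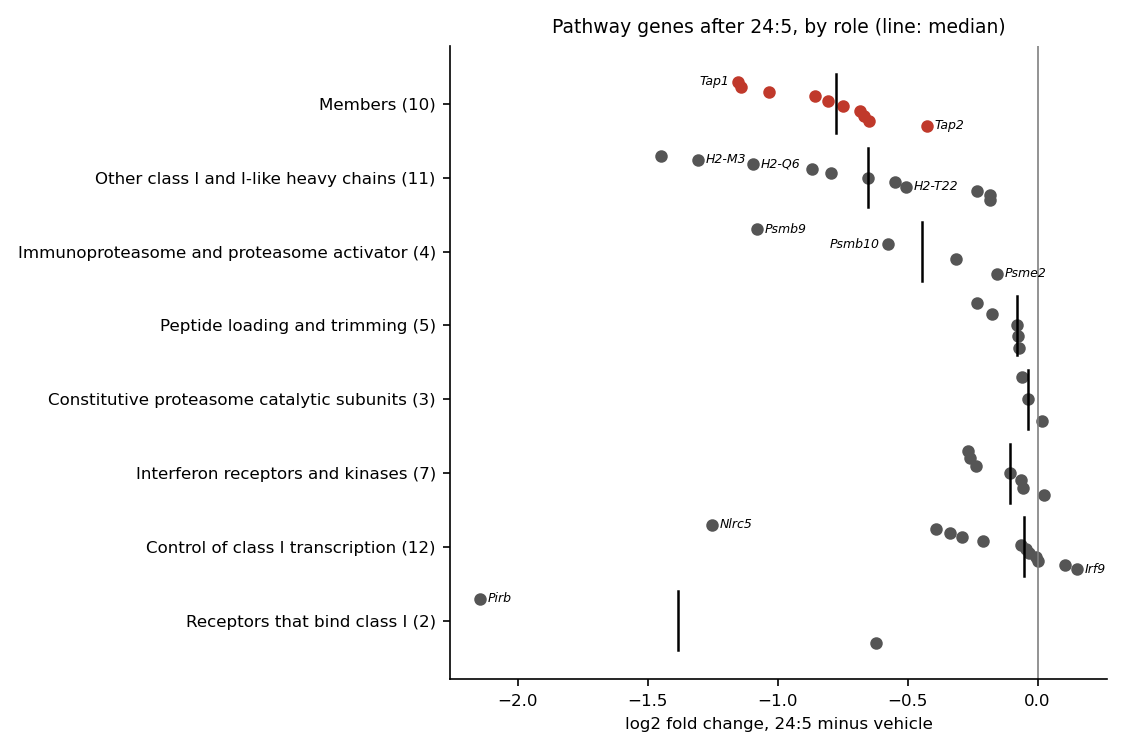
Log2 fold change of 24:5 minus vehicle for the 10 members (red) and for 44 other pathway genes (grey), one point per gene, grouped by role with the number tested in brackets and a line at each median. Members, other heavy chains and immunoproteasome genes have medians of -0.78, -0.65 and -0.45. The medians are -0.08 for loading genes, -0.04 for constitutive proteasome genes and -0.10 for interferon receptors and kinases. Of the interferon receptors and kinases, 6 are lower and 1 is higher, with Ifngr2 lowest at -0.27.

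Markers of several immune cell types were lower in the same retinas. The marker lists were drawn up with earlier results of these data known, so nothing is read from their counts. All 12 microglia and macrophage markers were lower after 24:5, 7 of them without overlap against 6.77% of all genes tested, and their summed level was 144 to 253 CPM after 24:5 and 287 to 468 CPM after vehicle. The 6 markers of class II antigen presenting cells summed to 18.6 to 38.0 CPM after 24:5 and 98.2 to 195 CPM after vehicle. The 5 monocyte markers summed to 1.15 to 5.12 CPM after 24:5 and 12.4 to 30.8 CPM after vehicle. The 8 T and natural killer cell markers were scarce, at 0.655 to 1.19 CPM after 24:5 and 1.21 to 1.73 CPM after vehicle. No marker of these lists was at 0 in every injected library.

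Endothelial and interferon marker sums were also lower in every 24:5 library than in every vehicle library. Endothelial markers were lower in 7 of 8, and 3 were lower without overlap, against 6.77% of genes tested. Their sums were 264 to 339 CPM after 24:5 and 348 to 408 CPM after vehicle. The 8 interferon-induced genes outside class I were all lower without overlap, again against 6.77% of genes tested. Their sums were 120 to 124 CPM after 24:5 and 251 to 264 CPM after vehicle. The 2 genes that edgeR called, Rnf213 and Ifit1, are among them. Since this list too was drawn up with earlier results known, nothing is read from that share. Reactive gliosis markers were lower in 5 of 5, with sums of 258 to 781 CPM after 24:5 and 673 to 899 CPM after vehicle. Pericyte markers were lower in 4 of 4, with sums of 160.0 to 192 CPM after 24:5 and 186 to 216 CPM after vehicle. The lens markers, given by library above, were lower in 7 of 7 tested. The sums of the gliosis, pericyte and lens markers overlapped between the groups. The part of these markers in the levels of the members was not tested.

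**Figure D4:**
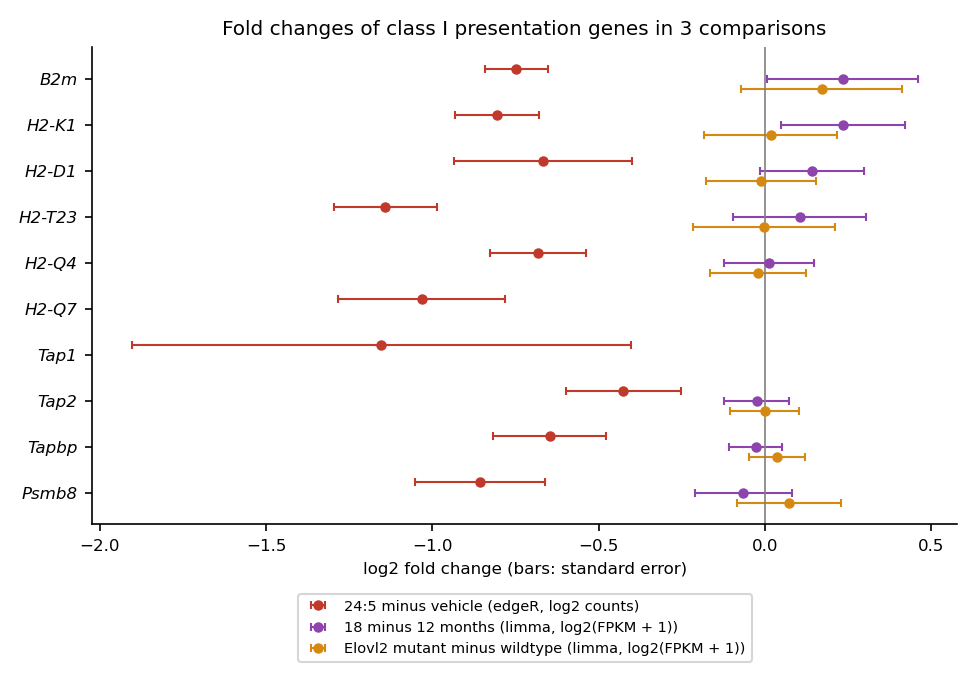
Log2 fold change of each member in 3 comparisons, 24:5 minus vehicle (edgeR on counts), 18 minus 12 months in wildtype and Elovl2 mutant minus wildtype at 12 months (limma on log2(FPKM + 1)), with bars of 1 SE. The injection values run from -1.15 to -0.43, while the age and genotype values lie between -0.06 and 0.24. H2-Q7 and Tap1 have no point for age and genotype because their mean was under 1 FPKM.

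In uninjected retinas the members did not differ by age or genotype beyond the spread between libraries. The list was not chosen on these comparisons, so they were tested, with limma on log2(FPKM + 1) over 13786 genes. That scale understates changes of low genes. 8 members were tested, since H2-Q7 and Tap1 averaged 0.486 and 0.966 FPKM, under the minimum of 1.

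With age, B2m was at 54.8, 44.1, 50.5 and 45.0 FPKM at 18 months, against 61.8, 30.8 and 36.3 FPKM in wildtype retinas at 12 months. The 18-month libraries all lay inside the 12-month range, and the log2 difference of 0.23 (SE 0.23) had a limma p of 0.327 and an adjusted p of 0.9999. It was 0.52 without 12-month replicate 1, 0.03 without replicate 2 and 0.15 without replicate 3. H2-K1 was at 27.6, 22.3, 23.6 and 22.3 FPKM at 18 months, against 26.6, 13.8 and 22.1 FPKM at 12 months. Its log2 difference of 0.24 (SE 0.19) was the largest of the members, with a limma p of 0.236. H2-D1 was at 36.4, 26.3, 29.8 and 27.1 FPKM at 18 months, against 28.4, 21.3 and 31.8 FPKM at 12 months. The groups overlapped, with a log2 difference of 0.14 (SE 0.15).

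H2-T23 was at 3.95, 2.97, 4.14 and 3.26 FPKM at 18 months, against 4.0, 2.21 and 3.73 FPKM at 12 months. Tapbp was at 17.1, 17.4, 18.4 and 17.1 FPKM at 18 months, against 20.2, 15.9 and 17.8 FPKM at 12 months. H2-T23 overlapped in part, with a log2 difference of 0.10 (SE 0.20), while all 18-month values of Tapbp lay inside the 12-month range, with a log2 difference of -0.03 (SE 0.08). Psmb8 was at 2.01, 1.15, 1.16 and 1.07 FPKM at 18 months, against 1.61, 1.22 and 1.45 FPKM at 12 months. One 18-month library held the highest Psmb8 value and the other three the lowest. The groups of the low genes overlapped too, with H2-Q4 at 2.87 ± 0.311 FPKM in 18-month retinas (SD, n = 4) against 2.90 ± 0.882 FPKM in 12-month retinas (SD, n = 3), and Tap2 at 2.32 ± 0.149 FPKM against 2.40 ± 0.484 FPKM. On the log2(FPKM + 1) scale of the fit, 5 of the 8 tested members were higher and 3 lower at 18 months. H2-Q4 counts as higher there at a log2 difference of 0.01 (SE 0.13), although its mean FPKM was lower and edgeR gave -0.011. The members had limma p between 0.236 and 0.932. None passed, as was true of all genes tested (0%), of which 503 had an unadjusted p under 0.05. No member separated the groups, while 4.17% of genes tested did.

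By genotype at 12 months, B2m was at 35.2, 53.5 and 52.5 FPKM in Elovl2 mutant retinas, against 61.8, 30.8 and 36.3 FPKM in wildtype retinas. These groups interleave, and the log2 difference was 0.17 (SE 0.24) with a limma p of 0.498, the smallest of the members. H2-K1 was at 17.7, 21.3 and 22.5 FPKM in mutant retinas, against 26.6, 13.8 and 22.1 FPKM in wildtype retinas. H2-D1 was at 22.7, 28.1 and 29.4 FPKM in mutant retinas, against 28.4, 21.3 and 31.8 FPKM in wildtype retinas. For both classical chains the mutant libraries lay inside the wildtype range, with log2 differences of 0.02 (SE 0.20) and -0.01 (SE 0.17).

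Tap1, too low to be tested, was at 1.06, 1.07 and 1.09 FPKM in mutant retinas, against 1.07, 0.547 and 0.920 FPKM in wildtype retinas. Psmb8 was at 1.23, 1.69 and 1.76 FPKM in mutant retinas, against 1.61, 1.22 and 1.45 FPKM in wildtype retinas. Neither gene separated the genotypes. On the log2(FPKM + 1) scale, 4 of the 8 tested members were higher and 4 lower in the mutant. The mean FPKM went the other way for H2-K1, at 20.5 in mutant and 20.8 in wildtype retinas, and for H2-T23, at 3.323 in mutant and 3.317 in wildtype retinas. The members had log2 differences between -0.02 and 0.17 and limma p up to 0.998. None passed, again like all genes tested (0%), of which 302 had an unadjusted p under 0.05, and none separated the genotypes, while 5.97% of genes tested did. Age and genotype share the 12-month wildtype libraries, so their values are not independent. Set directly against the mutant at 12 months, wildtype retinas at 18 months had 5 members higher and 3 lower, with log2 differences between -0.14 and 0.22 and no call among the members or among all genes (0%), of which 295 had an unadjusted p under 0.05.

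**Figure D5:**
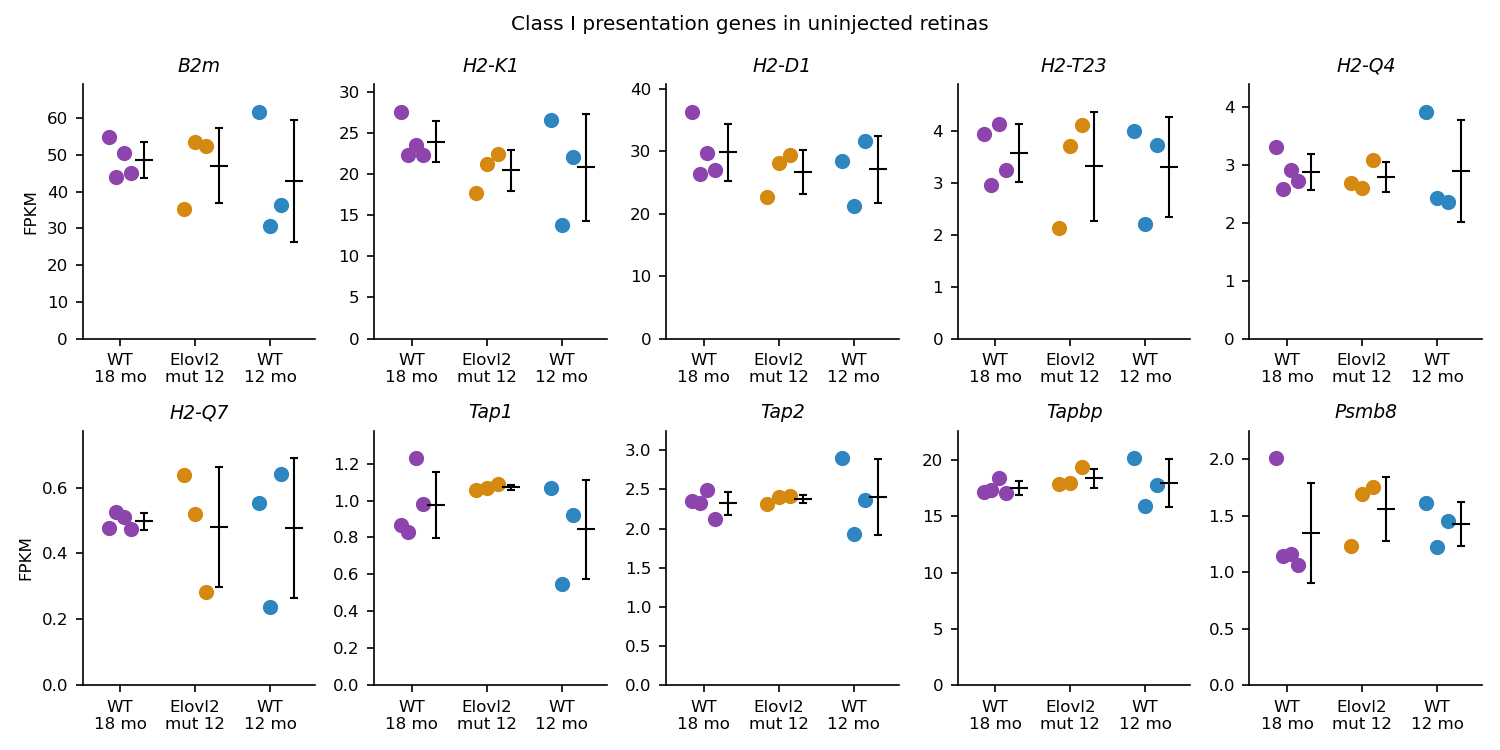
FPKM of each member in the 10 uninjected retinas, wildtype at 18 months, Elovl2 mutant at 12 months and wildtype at 12 months, with one point per library and the mean and SD of each group beside them. The groups overlap for every member. Wildtype 12-month libraries spread widest for B2m, from 30.8 to 61.8 FPKM.

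Libraries of one group also differed in the mean level of the members. Averaged over the 10 members after centring each on its own mean log2 level, wildtype 12-month replicate 1 was the highest uninjected library at 0.19 and replicate 2 of that group the lowest at -0.32. Replicate 2 also held the most Malat1, a nuclear RNA, at 377 FPKM in a range of 85.7 to 377 FPKM. With Malat1 level as a covariate, limma called 0 members by age and 0 by genotype. In the mutant group the mean profile ran from -0.14 to 0.09, and in the 18-month group from -0.06 to 0.15.

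The other pathway genes showed no call in uninjected retinas either. Of 36 tested, none passed limma's adjusted threshold by age, genotype or between 18-month wildtype and mutant. At an unadjusted p of 0.05, 0, 1 and 1 passed in these comparisons, and edgeR on the recovered reads called 0 in each. By age the smallest p belonged to Hfe, an iron-regulating class I-like chain, with 6.80 ± 0.290 FPKM in 18-month retinas (SD, n = 4), against 6.10 ± 0.531 FPKM in 12-month retinas (SD, n = 3), and with a limma p of 0.0873. The next were the interferon receptor chains Ifnar1 at a log2 difference of 0.12 and Ifngr2 at 0.16, and H2-M3 at 0.30. By genotype it belonged to Cd1d1, a lipid-presenting class I-like chain, at 1.23 ± 0.0270 FPKM in mutant retinas and 1.70 ± 0.207 FPKM in wildtype retinas (SD, n = 3 each), with a limma p of 0.0350 and an adjusted p of 0.9998. Mr1 followed at a log2 difference of -0.19, H2-M3 at 0.35 and Ifnar2 at 0.15. Between 18-month wildtype and mutant retinas, Mr1, Tapbpl, Cd1d1 and Ifnar1 came first, at log2 differences of 0.21, 0.22, 0.14 and 0.08.

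Levels can be ordered between genes only per length. In FPKM over the 10 uninjected libraries, B2m was highest at a mean of 46.4, followed by H2-D1 at 28.1, H2-K1 at 21.96 and Tapbp at 17.9. After a gap came H2-T23 at 3.42, H2-Q4 at 2.85, Tap2 at 2.36, Psmb8 at 1.44, Tap1 at 0.966 and H2-Q7 at 0.486. B2m exceeded H2-D1, and H2-D1 exceeded H2-K1, in 10 of 10 libraries. H2-K1 exceeded Tapbp, and H2-T23 exceeded H2-Q4, in 8 of 10, so those neighbours lay within their spread. In CPM per kilobase over the 6 injected libraries, the upper part of the order was the same, with B2m at 129, H2-D1 at 70.9, H2-K1 at 40.3 and Tapbp at 26.8, each above the next in 6 of 6 libraries. Below them H2-Q4 at 6.65, H2-T23 at 5.88, Tap1 at 4.56 and Tap2 at 4.13 exchanged places, and H2-Q7 at 0.741 was last in every library.

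The balance between the chains is given per length and within each table. H2-D1 made up 57.9% ± 5.61 of the summed heavy chain level per length after 24:5 and 55.6% ± 5.52 after vehicle (SD, n = 3 each). It made up 49.1% ± 1.17 in wildtype retinas at 18 months (SD, n = 4), and 49.7% ± 0.273 in mutant and 50.2% ± 4.66 in wildtype retinas at 12 months (SD, n = 3 each). H2-K1 held most of the remainder, at 31.8% ± 4.43 after 24:5 and 33.2% ± 4.01 after vehicle. The ratio of B2m to the summed heavy chains was 1.08 ± 0.251 after 24:5 and 1.06 ± 0.233 after vehicle (SD, n = 3 each). The difference in this ratio was smaller than the SD within either group, and these shares were not tested.

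Genes whose pattern was most like the mean profile of the members differed between the tables. Over 10 uninjected libraries and 8016 genes, the highest Pearson correlations belonged to Crip2 at 0.92, Cd9 at 0.92, Nt5dc2 at 0.92, Slc48a1 at 0.92, S1pr1 at 0.91, Slc2a1 at 0.90, Il33 at 0.90 and Slc3a2 at 0.89. Il33, an alarmin cytokine, was for example at 30.3 FPKM in wildtype 12-month replicate 1 and at 18.1 FPKM in replicate 2. Over 6 injected libraries and 11951 genes, they belonged to Os9 at 0.999, Vwa5a at 0.99, Tln1 at 0.99, Bst2 at 0.99, Adamts5 at 0.98, Ccnd3 at 0.98, Lrp10 at 0.98 and Eif2ak2 at 0.98. Bst2 and Eif2ak2 are interferon-induced antiviral genes, and Bst2 was at 4.53, 7.36 and 4.05 CPM after 24:5, against 13.2, 11.3 and 17.7 CPM after vehicle. The injected libraries include the group difference that chose the list, so genes that differ between the groups rank high there. Bst2 is also on the interferon-induced list above, and nothing is read from these names. With 6 libraries and this many genes, high correlations are found by search and describe likeness only.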

How the data were processed

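Whole mouse retinas were profiled by RNA-seq. The uninjected table holds FPKM values per gene with gene length and mm10 coordinates, and the injected table holds raw counts per gene, both as deposited by the authors. The submitters' processing notes name mm10, DESeq2 1.42.0, featureCounts 2.0.6 and HISAT2 2.2.1 without saying what each was used for. Neither the annotation release nor the strand setting is stated in them.

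Members were found by symbol in the FPKM table and by the identifier without version in the count table. Limma 3.58.1 (R 4.3.3, trend and robust options) was applied to log2(FPKM + 1) of 13786 genes with a mean of at least 1, in 1 fit of the 10 uninjected libraries. The quasi-likelihood test of edgeR 4.0.16 (robust, TMM, filterByExpr) was applied to counts of 17466 genes in the 6 injected libraries. The SE of an edgeR log2 fold change was its absolute value divided by the square root of the F statistic of that test. For the members, chosen on this comparison, these SEs are therefore a description and support nothing. Tests were two-sided, adjusted by Benjamini-Hochberg over all genes tested, with a threshold of 0.05. Reads per library were recovered from FPKM times gene length, of which 100.0% of values above 0 were whole multiples of a single read to within 0.02. Levels per kilobase used the deposited gene length.

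No replicate pair agreed within counting noise, with chi-square values of 3.25 to 47.6 per degree of freedom. Shared sequence was counted as 100-base windows over GENCODE transcripts. The procedure was tested on simulated data.

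The members and all gene lists were chosen with earlier results of these data known. Named were all members, and of the other pathway genes those past the threshold or else the 4 with the smallest p in each comparison. The 8 genes most like the members' mean profile were named among genes with a mean of at least 5 FPKM or CPM. Psmb5, Psmb6, Psmb7, Calr, Canx, Pdia3, Nlrc5, Pirb, Cd8a, Irf1, Psmb9 and the regulators given by library were named after their values were seen. Of 55 listed pathway genes, those not tested were under the expression filter or not used here.

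Alternatives were DESeq2 1.42.0 or RLE scaling for counts, a pseudocount of 0.1, no expression filter, only the groups compared, edgeR on recovered reads, a replicate block, covariates for Malat1, structural RNA or lens marker level, and leaving out each library. The split by lens marker level was added after seeing the data.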

Additional observations from a re-analysis of the deposited data

Results flagged for a closer look

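Psmb8 in wildtype retinas at 18 months had 1 library far from the others. Replicate 1 was at 2.01 FPKM (81 reads), while the other three lay between 1.07 and 1.16 FPKM (42 to 51 reads), and the gap to the nearest was 0.900 of the range of the group. Chance alone sets about 1 in 20 groups of this size apart in this way, and the groups of 4 were examined for each of the 10 members. The same library was also the highest of its group for H2-D1, at 36.4 FPKM, and for B2m, at 54.8 FPKM.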

How the results depend on the processing

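After 24:5, all 120 fold changes of the members under the other settings tried kept their direction. In the added split by lens level they did so too, and only B2m at -0.57 in the low set and H2-Q4 at -1.003 in the high set moved by more than the replicate spread. The number of genes called was unstable: edgeR called 2, of which 0 were members. DESeq2 called 245 genes and 7 members, no filter 85 and 4, the replicate block 88 and 3, a structural RNA covariate 45 and 2, and a lens marker covariate 183 and 4. Of the other pathway genes, the replicate block called Pirb (adjusted p of 0.0229). The members were chosen on this comparison, so their counts support nothing. Leaving out single libraries gave 0 to 105 genes and 0 to 2 members, the highest of both without vehicle replicate 3. Whether replicate numbers pair the samples cannot be told from so few libraries. Deviations of same-numbered libraries correlated at 0.40, -0.20 and 0.42 for injection. The correlations were -0.05, 0.42 and -0.39 for age, and 0.18, -0.42 and 0.51 for genotype.

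In uninjected retinas no alternative called a member. By age, no filter gave 4 genes, edgeR on recovered reads 1, the Malat1 covariate 1 and leaving out libraries 0 to 1 (1 without mutant replicate 3). By genotype, no filter gave 4. Between 18-month wildtype and mutant retinas, no filter gave 1, only the 2 groups 2, the Malat1 covariate 1 and leaving out libraries 0 to 3 (3 without 12-month wildtype replicate 1). No log2 difference of a member passed the threshold, and several near 0 turned sign. By age these were H2-Q4 with edgeR at -0.011 and Tap2 with the replicate block at 0.0046. By genotype they were H2-K1 at -0.028 with edgeR and -0.041 with the Malat1 covariate, H2-T23 at 0.0018 with edgeR, and Tap2 at 0.0044 with a pseudocount of 0.1. Between 18-month wildtype and mutant, Tap2 was at 0.0049 with the block. Leaving out single libraries gave by age -0.021 to 0.43 for H2-K1, -0.019 to 0.26 for H2-D1, -0.10 to 0.22 for H2-T23, -0.086 to 0.19 for H2-Q4, -0.13 to 0.079 for Tap2 and -0.11 to 0.054 for Tapbp. By genotype it gave -0.032 to 0.46 for B2m, -0.24 to 0.21 for H2-K1, -0.17 to 0.11 for H2-D1, -0.20 to 0.21 for H2-T23, -0.12 to 0.16 for H2-Q4, -0.10 to 0.10 for Tap2 and -0.043 to 0.12 for Tapbp. Between 18-month wildtype and mutant it gave -0.13 to 0.17 for B2m, -0.11 to 0.25 for H2-T23, -0.018 to 0.087 for H2-Q4 and -0.048 to 0.0049 for Tap2. The cause was not tested. Depth limits H2-Q7 most, with 19 to 72 reads per uninjected library.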

Other observations

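Irf9, a subunit of the factor that binds interferon response elements, varied more between injected libraries than between the groups. It was at 21.95, 205 and 158 CPM after 24:5, against 61.4, 56.7 and 228 CPM after vehicle. The libraries low in Irf9 are those high in lens markers. Pooled over groups, its log2 fold change was 0.15 (SE 0.98).

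Within the libraries of high and of low lens level, a split added after the data had been seen, Irf9 was lower after 24:5. It was at 21.95 CPM after 24:5 and 59.1 CPM after vehicle in the high set, and at 181 CPM after 24:5 and 228 CPM after vehicle in the low set. Stat2, Irf1, Irf8, Nlrc5 and Psmb9 were lower within both sets as well. A set holds 3 libraries, these genes were picked after their values were seen, and the part of lens tissue in their levels was not tested.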
